A study of Mus musculus with 14 samples.

Results

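Rasgrf1, 1 of the 23375 genes in an expression table from mouse brain, was followed through all 14 libraries of the table. The gene was chosen by its name, as the row with the symbol Rasgrf1. Each library was made from poly(A) RNA of brain and belongs to 1 of 7 groups of 2 libraries. In late embryos, labelled E19.5 for the day of gestation, the groups were wild type, KO2 and KO7. In adults they were KO2, KO3 and a pair of wild-type sets, called set 1 and set 2 after the numbering in the titles. KO2 animals carried deletions of the H19-DMR and the IG-DMR, where a DMR is a region methylated differently on the maternal and the paternal chromosome. KO3 animals lacked the Rasgrf1-DMR in addition to both KO2 regions. In KO7 animals the deleted DMRs were those of Peg3, Kcnq1, Snrpn, Igf2r, Grb10, Nespas and Gnas. All engineered animals were made with haploid embryonic stem cells in which these regions had been modified, and the labels state no age for the adults and no strain. Background knowledge of the study, which the labels do not state, is that KO2 and KO3 animals have a pair of maternal genomes and KO7 animals a pair of paternal ones, so that the deletions and the parental origin of the genomes cannot be told apart. The labels do not say that the libraries of a group came from separate animals, and every p-value below measures the spread between these libraries, which may be technical.

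Rasgrf1 encodes a guanine nucleotide exchange factor that loads Ras with GTP when calcium and calmodulin rise in neurons, and it can also act on Rac. The protein binds the NMDA receptor and passes its signal to the RAF-MEK-ERK kinase cascade. In brain the gene is imprinted and transcribed mainly from the paternal chromosome. Its DMR lies upstream of the gene and is methylated on the paternal chromosome. On the maternal chromosome the unmethylated DMR binds CTCF, which keeps an enhancer from acting on the promoter.

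The start of Rasgrf1 is shown beside that of its paralog Rasgrf2, which encodes a closely related exchange factor, because the levels of the pair moved apart in the data below. The sequences are RefSeq's for build GRCm38.p6, run 5′ to 3′ on the strand of the gene and cover 250 bases before to 50 bases after the annotated start. They lie at chr9:89909525-89909824 on the plus strand for Rasgrf1 and at chr13:92131779-92132078 on the minus strand for Rasgrf2. Capitals mark the match to TGACG, the half-site of the cyclic AMP response element, on either strand.
Rasgrf1: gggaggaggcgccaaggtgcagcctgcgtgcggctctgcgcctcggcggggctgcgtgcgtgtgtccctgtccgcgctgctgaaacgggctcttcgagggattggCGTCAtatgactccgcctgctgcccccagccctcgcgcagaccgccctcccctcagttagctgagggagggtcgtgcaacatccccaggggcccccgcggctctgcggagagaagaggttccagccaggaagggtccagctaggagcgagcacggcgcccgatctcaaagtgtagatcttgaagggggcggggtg
Rasgrf2: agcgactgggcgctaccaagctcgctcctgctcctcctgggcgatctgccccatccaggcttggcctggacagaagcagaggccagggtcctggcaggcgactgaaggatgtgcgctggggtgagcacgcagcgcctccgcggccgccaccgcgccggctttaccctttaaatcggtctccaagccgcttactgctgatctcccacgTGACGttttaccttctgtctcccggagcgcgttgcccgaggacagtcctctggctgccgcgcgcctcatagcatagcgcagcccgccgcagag
Both windows were rich in CpG, with 26 CpG dinucleotides for Rasgrf1 and 28 for Rasgrf2, against a median of 7 over 32851 RefSeq promoter windows of the same length. Each held 1 match to TGACG, at -145 on the minus strand in Rasgrf1 and at -43 on the plus strand in Rasgrf2, and 20.8% of all windows held at least 1. The GC box GGGCGG was found 2 times in the Rasgrf1 window, at -104 and +41, and not in that of Rasgrf2, and 35.7% of all windows held it. The letters CCAAT occurred 1 time, at -150, in Rasgrf1 and not in Rasgrf2, with 37.4% of all windows holding them. The CCAAT and TGACG matches of Rasgrf1 are adjacent and do not overlap. The E-box CANNTG occurred 1 time in each, at -142 in Rasgrf1 and -47 in Rasgrf2, overlapping the TGACG match, and in 72.3% of all windows. TATAAA, which 13.6% of windows held, and the full element TGACGTCA, which 1.79% held, were in neither. All motifs were searched on both strands. These matches describe the letters only. The DMR itself lies outside these windows, and its sequence is not used here.

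Levels are given as FPKM, sequenced fragments normalised for the length of the transcript and the number mapped in the library, and the depth of the libraries is unknown because the table holds no read counts. The deleted regions are not genes and are not measured in the table, so the Rasgrf1 level is no check of the deletion labels. Adult KO3 and adult wild-type set 2 had been handled differently from the other 10 libraries: 9994 genes (42.8%) were listed at 0 in all 4 of these libraries, and 6396 of them were above 0 elsewhere. Every gene above 0 in any of the 4 reached at least 1.024 FPKM in 1 of them. A gene listed at 0 in all 4 may therefore have had a low level and not none. The same 4 libraries carried far more RNA of cerebellar genes. The summed FPKM of 9 cerebellar markers was 608.8 to 680.9 in set 2 and 760.2 to 1135 in KO3, against 116.2 to 134.9 in set 1 and 139.5 to 192.8 in adult KO2. Gabra6, a GABA receptor subunit of cerebellar granule cells, was at 0 in both libraries of set 1. For this reason adult KO2 was compared with set 1 and adult KO3 with set 2, the wild-type libraries of matching handling. All libraries expressed the 8 neuronal markers, with summed levels of 2037 to 3587 FPKM. Replicate 2 of adult KO3, replicate 2 of adult wild-type set 2 and replicate 1 of E19.5 KO2 (3 libraries) stood apart from the rest in an earlier analysis of these data, and results that rest on them are also given without them.

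In E19.5 brain, Rasgrf1 stood at 12.03 and 12.75 FPKM in wild type. The KO2 libraries had 2.94 and 0.672 FPKM, both below every other library of the table. The KO7 libraries had 8.25 and 8.16 FPKM, between the other E19.5 groups and without overlap with either. Adult wild-type set 1 had 89.5 and 100.4 FPKM, and set 2 had 149.4 and 97.16 FPKM. Adult KO2 had 19.72 and 14.79 FPKM, the lowest values among the adult libraries. Adult KO3 had 103.6 and 85.33 FPKM, within or just below the span of the adult wild-type libraries.

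**Figure D1:**
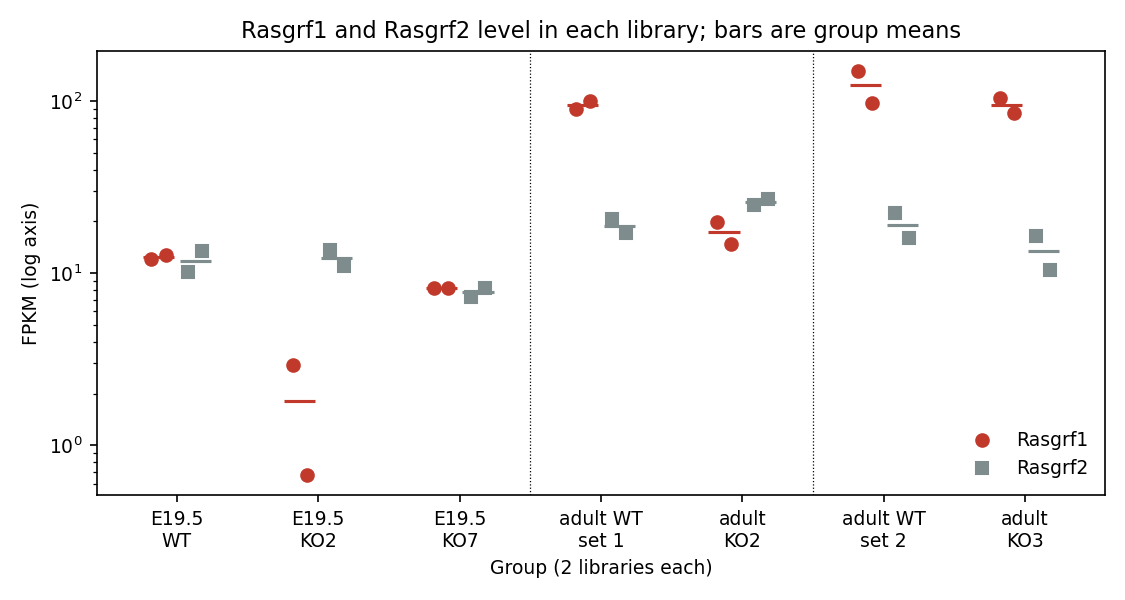
FPKM (log axis) of Rasgrf1 (red circles) and Rasgrf2 (grey squares) in each of the 14 libraries, by group, with short bars for group means of 2 libraries. Rasgrf1 is lowest in KO2 at both stages (0.672 to 2.94 FPKM at E19.5, 14.79 to 19.72 FPKM in adults), while the Rasgrf2 libraries of KO2 stay at 11.01 FPKM or above.

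Ordered by mean, the groups ran from E19.5 KO2 (1.805 ± 1.602 FPKM, SD, n = 2) through E19.5 KO7 (8.204 ± 0.0589), E19.5 wild type (12.39 ± 0.5035), adult KO2 (17.25 ± 3.486), adult KO3 (94.47 ± 12.92) and adult wild-type set 1 (94.97 ± 7.741) to set 2 (123.3 ± 36.91). The step from adult KO2 to the next group was the widest on the linear scale, with 65.62 FPKM between the nearest libraries. The first 4 groups in this order were separated from the group next above, the narrowest gap being the 2.04 FPKM between E19.5 wild type and adult KO2. Adult KO3, set 1 and set 2 overlapped and did not differ in order beyond their spread. The E19.5 KO2 pair was the most uneven for its level, its libraries differing by more than their common mean.

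The place of Rasgrf1 among the 14322 tested genes moved in the same way. Its percentile was 56.7 and 58.6 in the wild-type libraries of E19.5, 22.03 and 4.64 in E19.5 KO2, and 46.6 and 45.7 in KO7. In adults the percentile was 94.5 and 95.4 in set 1, 97.6 and 96.2 in set 2, 95.5 and 93.1 in KO3, and 72.5 and 64.2 in KO2. Every adult wild-type and KO3 library placed Rasgrf1 at percentile 93.1 or above, and no KO2 library placed it above 72.5.

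The first comparison asked what happened to Rasgrf1 at E19.5 with the H19-DMR and IG-DMR deleted. Rasgrf1 fell in KO2, with a mean FPKM 6.86-fold lower than in wild type. On the log2(FPKM + 1) scale, which understates changes of low genes, the difference was -2.38 (SE 0.32, 95% interval -3.09 to -1.68, limma adjusted p = 0.00863). Among all tested genes 1.28% were called in this comparison and 0.398% (57 genes) were called lower, where called means an adjusted p under 0.05 over all genes tested. Rasgrf1 had the 7th largest fall of all tested genes and the 2nd largest of those called. Without replicate 1 of KO2 the difference was -3.001 (limma adjusted p = 0.0013). The call was lost without replicate 1 of wild type (-2.42, limma adjusted p = 0.106).

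The KO2 libraries differed from wild type in other cell markers too. The 8 astrocyte markers summed to 488.2 to 524.7 FPKM in E19.5 KO2 and 232.6 to 278.6 FPKM in wild type, and 1 of 8, Aldoc, was called higher, where 0.88% of tested genes were. The oligodendrocyte gene Mbp, which encodes a myelin protein, rose by 2.23 on the log2 scale (limma adjusted p = 0.00952). Without the 3 libraries that stood apart, the differences of Mbp and Aldoc were 1.69 and 1.61 and narrowly missed the threshold (limma adjusted p = 0.0530 and 0.0561). The 8 neuronal markers summed to 2666 to 2757 FPKM in KO2 and 2701 to 2843 FPKM in wild type, and none of the 8 was called (2 with an unadjusted p under 0.05). Forebrain excitatory neuron markers, of which none of 8 was called (2 with an unadjusted p under 0.05), summed to 239.4 to 240.7 FPKM in KO2 and 261.3 to 396.3 FPKM in wild type. Over all tested genes 1.28% were called in this comparison and 2305 of 14322 had an unadjusted p under 0.05. The part of these markers in the Rasgrf1 result was not tested. In bulk tissue, fewer cells that express Rasgrf1 and less Rasgrf1 RNA per cell cannot be told apart.

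In KO7 the mean Rasgrf1 level was 1.51-fold lower than in wild type. The libraries did not overlap, but 2 against 2 cannot give a p below 0.333 in an exact permutation test. The lack of overlap alone therefore carries little weight. The difference of -0.54 did not pass the test (95% interval -1.25 to 0.17, limma adjusted p = 0.36), where 4.45% of tested genes were called in either direction. Without the 3 libraries that stood apart, none of which is in this comparison, the same difference passed (limma adjusted p = 0.0452). Set directly against KO2, the mean level in KO7 was 4.54-fold higher, a log2 difference of 1.84 (95% interval 1.13 to 2.55, limma adjusted p = 0.00919), where 3.23% of tested genes were called higher. Without the 3 libraries that stood apart, of which 1 is in KO2, the Rasgrf1 difference was 2.46 (limma adjusted p = 0.0005987). The call was lost without either of the KO7 libraries (limma adjusted p = 0.0735 and 0.0584). The groups also differed in sex-linked RNA, named here after the values were seen. The Y-linked gene Eif2s3y had 22.58 and 25.03 FPKM in KO7 and at most 0.0274 FPKM elsewhere. Xist, the RNA of the inactive X chromosome, had 117.3 and 105.7 FPKM in wild type at E19.5, 1.498 and 84.01 FPKM in KO2 and at most 0.0403 FPKM in KO7. Sex and KO7 cannot be told apart at E19.5.

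In adult brain Rasgrf1 again fell in KO2, to a mean FPKM 5.50-fold below wild-type set 1. The log2 difference was -2.41 (SE 0.32, 95% interval -3.11 to -1.70, limma adjusted p = 0.0143), where 0.154% of tested genes were called and 0.0489% (7 genes) were called lower. The lowest set 1 library, at 89.5 FPKM, was above the highest KO2 library, at 19.72 FPKM. The call was lost when any 1 of the 4 libraries was left out (limma adjusted p = 0.0572 to 0.0967), with a log2 difference of -2.60 to -2.21. All 8 striatal markers were lower in adult KO2, with summed levels of 242.6 to 476.4 FPKM against 692.3 to 745.6 FPKM in set 1 and a median log2 difference of -1.04. None of the 8 was called, but all 8 had an unadjusted p under 0.05, as had 1051 of the 14322 tested genes. The part of the striatal markers in the adult Rasgrf1 result was not tested. At E19.5 the same 8 markers were all higher in KO2, summing to 130.4 to 142.2 FPKM against 72.0 to 114.5 FPKM in wild type. Their part at that stage was not tested either.

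The KO2 differences at the stages were set against each other. The adult difference minus the E19.5 difference was -0.02 on the log2 scale (SE 0.46, 95% interval -1.02 to 0.98, limma adjusted p = 0.989), where 0.0628% of tested genes were called. This value moved with single libraries and with the pseudocount: for Rasgrf1 it was 0.60 without replicate 1 of E19.5 KO2, -0.64 without its replicate 2 and -1.02 with a pseudocount of 10 (limma adjusted p = 0.107), and it passed under no alternative. The KO2 comparisons at E19.5 and in adults set different libraries against each other, but share 1 estimate of the spread from all 14. Their p-values are therefore not independent. Of the 57 genes called lower at E19.5 and the 7 called lower in adults, 1 was in both lists, and it was Rasgrf1 (1.75% of the first list and 14.3% of the second). By comparison 3 genes were called higher in both, of 126 and 15 (0.105% of tested genes were called higher in the adult comparison). Rasgrf1 was called lower at both stages under 17 of 23 alternative settings. Under the other 6 no gene was, and in 1 setting a 2nd gene joined it.

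**Figure D2:**
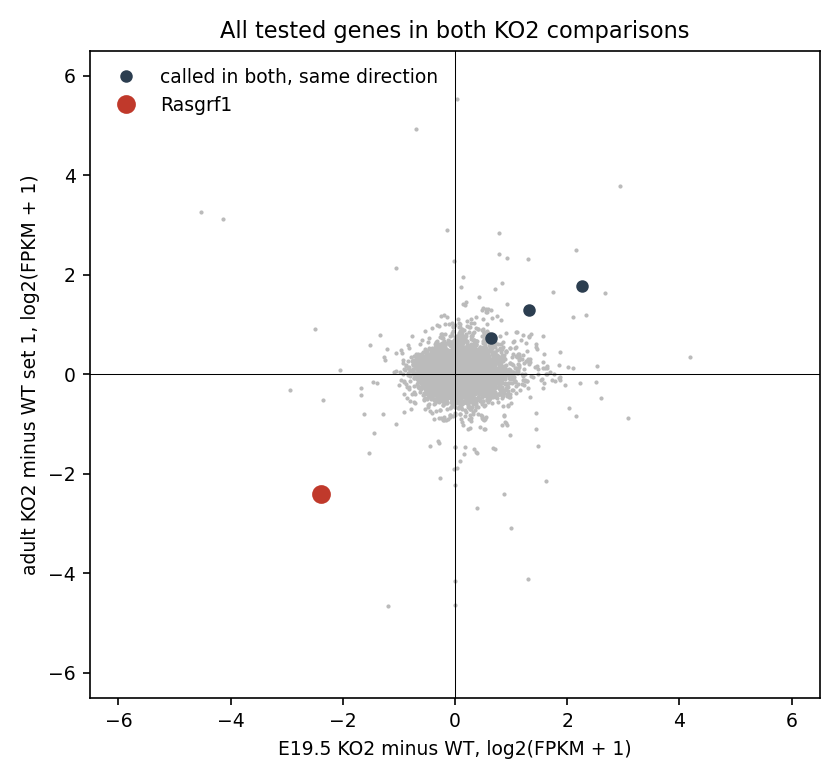
Each grey point is 1 of 14322 tested genes, placed by its difference between KO2 and wild type at E19.5 (horizontal) and between adult KO2 and wild-type set 1 (vertical), both in log2(FPKM + 1), with 6 genes outside the axes. Rasgrf1 (red) lies at -2.38 and -2.41, and the 3 dark points are the genes called higher at both stages.

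In adult KO3, the line that also lacks the Rasgrf1-DMR, the Rasgrf1 libraries (103.6 and 85.33 FPKM) overlapped those of wild-type set 2 (149.4 and 97.16 FPKM). The mean was 1.31-fold lower than in set 2, and the log2 difference of -0.35 did not pass the test (95% interval -1.06 to 0.35, limma adjusted p = 0.444). In this comparison 22.1% of all tested genes were called, and Rasgrf1 was not among them. The Rasgrf1 difference ran from -0.66 without replicate 2 of set 2 to -0.05 without its replicate 1, was -0.52 without the 3 libraries that stood apart (limma adjusted p = 0.187), and passed under no alternative. The interval spans losses and gains, so equality with wild type is not shown. The lower KO3 library, at 85.33 FPKM, stood far above the higher adult KO2 library, at 19.72 FPKM. The calls of this comparison rested on single libraries. Over all genes they numbered 3164, and 6780 without replicate 1 of KO3, 297 without its replicate 2, 8 without replicate 1 of set 2 and 613 without its replicate 2. They numbered 85 without the 3 libraries that stood apart, and 0 when only the adult libraries entered the fit (4403 with an unadjusted p under 0.05). Under either of the last settings no member of the signalling lists below and no neighbour of Rasgrf1 was called in KO3.

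Whether Rasgrf1 differed between KO3 and KO2 was tested as the KO3 change against set 2 minus the KO2 change against set 1. This difference was 2.05 on the log2 scale (SE 0.46, 95% interval 1.05 to 3.05). It missed the threshold after adjustment (unadjusted p = 0.000855, limma adjusted p = 0.0650), where 0.0489% of tested genes were called and 4020 genes had an unadjusted p under 0.05. With the wild-type sets as 1 group they cancel, and the contrast becomes KO3 set directly against KO2, which holds the difference in handling. That direct Rasgrf1 difference was 2.39 (limma adjusted p = 0.0194 in the fit with 1 wild-type group and 0.000884 in the fit with the sets apart), and it adds no separate evidence on the contrast within sets. The KO3 and KO2 lines differ in the Rasgrf1-DMR and in the set of libraries they belong to, and with each line compared within its set the handling enters both terms.

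The adult wild-type sets, which differed in handling and in cerebellar RNA, did not differ in Rasgrf1 beyond their spread. Set 2 was 1.30-fold above set 1 in mean FPKM, with overlapping libraries and a log2 difference of 0.34 (95% interval -0.37 to 1.05, limma adjusted p = 0.469), where 20.9% of tested genes were called. All 9 of 9 cerebellar markers were called higher in set 2, where 6.84% of tested genes were, with a median log2 difference of 2.62. Without the 3 libraries that stood apart, Rasgrf1 was called higher in set 2 by 0.65 (limma adjusted p = 0.0296).

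Rasgrf1 rose steeply between E19.5 and adult brain. In wild type the mean FPKM of set 1 was 7.67-fold that of E19.5, a log2 difference of 2.84 (95% interval 2.13 to 3.55, limma adjusted p = 2.46e-05), where 21.9% of tested genes were called higher and 34.1% lower. In KO2 the rise was 9.56-fold in mean FPKM and 2.82 on the log2 scale (95% interval 2.11 to 3.53, limma adjusted p = 3.63e-05), where 20.7% were called higher and 28.6% lower. The KO2 rise of Rasgrf1 was 3.435 on the log2 scale without replicate 1 of E19.5 KO2 (also without all 3 libraries that stood apart, limma adjusted p = 1.341e-05) and 2.199 without its replicate 2. The median difference of all tested genes was -0.148 in wild type, and -0.027 after median-of-ratios scaling, a shift far smaller than the Rasgrf1 rise. In mean FPKM adult KO2 (17.25) lay above E19.5 wild type (12.39), a difference that was not tested. The adult KO2 mean lay far below those of both adult wild-type sets. Stage also moved the cell markers: the summed oligodendrocyte markers were 101.5 to 123.8 FPKM at E19.5 and 2490 to 3254 FPKM in set 1.

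**Figure D3:**
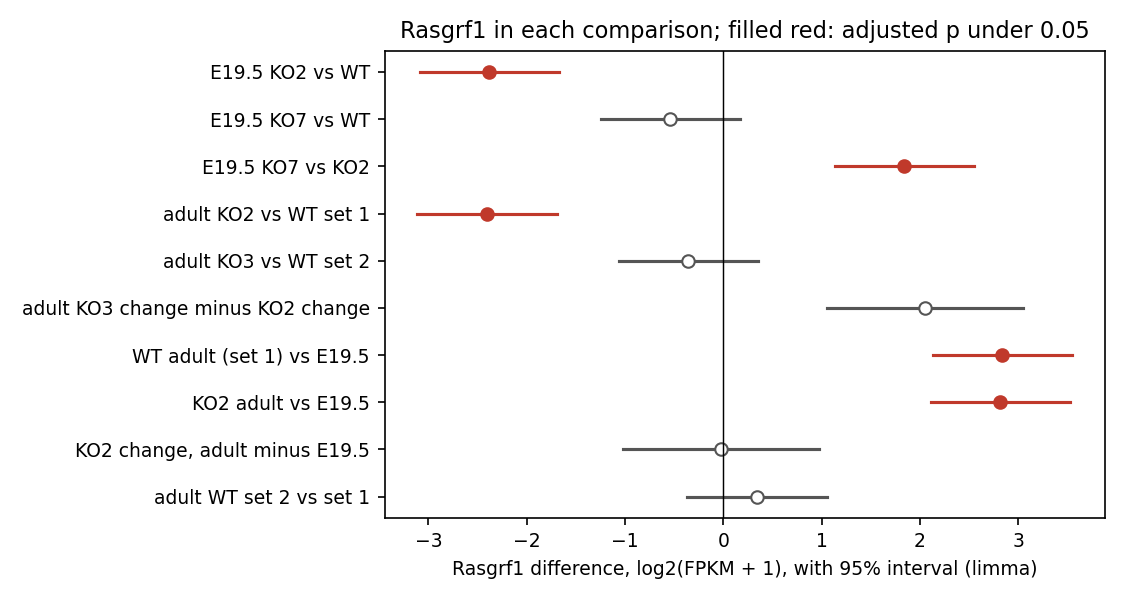
Rasgrf1 difference in log2(FPKM + 1) with its 95% interval from limma in 10 comparisons, with filled red points where the adjusted p is under 0.05. Both KO2 comparisons lie near -2.4, both stage comparisons near 2.8, and the intervals of KO7 and KO3 against their wild types include 0.

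Rasgrf2 did not follow Rasgrf1 into the KO2 fall. It had 10.11 and 13.49 FPKM in wild type at E19.5 and 13.66 and 11.01 FPKM in E19.5 KO2, so the libraries overlapped. The log2 difference was 0.06 (95% interval -0.42 to 0.55, limma adjusted p = 0.923). In adults Rasgrf2 had 20.59 and 17.11 FPKM in set 1 and 25.0 and 26.84 FPKM in KO2, with KO2 higher in both libraries. That difference of 0.44 did not pass the test (95% interval -0.04 to 0.93, limma adjusted p = 0.724). KO3 had 16.34 and 10.5 FPKM and set 2 had 22.35 and 15.96 FPKM, a difference of -0.49 (limma adjusted p = 0.118). E19.5 KO7 had 7.32 and 8.18 FPKM, a difference from wild type of -0.54 (limma adjusted p = 0.189). With stage Rasgrf2 rose less than Rasgrf1, by 0.64 in wild type (limma adjusted p = 0.0271) and 1.02 in KO2 (limma adjusted p = 0.00262).

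The ratio of the paralogs therefore changed with line and stage. Rasgrf1 was 1.19 and 0.945 times the FPKM of Rasgrf2 in E19.5 wild type, 1.13 and 0.998 times in KO7, and 0.215 and 0.0611 times in E19.5 KO2. In adults the ratio was 4.35 and 5.87 in set 1, 6.68 and 6.09 in set 2, 6.34 and 8.13 in KO3, and 0.789 and 0.551 in KO2. Rasgrf2 exceeded Rasgrf1 in all 4 KO2 libraries.

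Rasgrf1 belongs to a larger group of exchange factors for Ras, Rap and Ral, the small GTPases of the Ras branch, of which 26 were measured. Its share of their summed FPKM was 3.17% and 3.35% in E19.5 wild type, 2.68% and 2.40% in KO7, and 0.752% and 0.185% in E19.5 KO2. In adults the share was 11.95% and 15.6% in set 1, 20.7% and 16.7% in set 2, 18.2% and 18.9% in KO3, and 3.23% and 2.63% in KO2. By FPKM it ranked 1st or 2nd of the 26 in every adult wild-type and KO3 library, and 10th and 12th in adult KO2. The other 25 genes summed to 362.8 to 387.9 FPKM in E19.5 KO2 and 367.1 to 367.9 FPKM in wild type. In adults they summed to 548.3 to 590.4 FPKM in KO2 and 544.3 to 659.2 FPKM in set 1.

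None of the other 25 exchange factors was called in KO2 at E19.5 (median log2 difference 0.06, range -0.52 to 0.52, against a median of -0.01 over all tested genes, 5 with an unadjusted p under 0.05). In that comparison 1.28% of tested genes were called and 2305 of 14322 had an unadjusted p under 0.05. None was called in adult KO2 either (median 0.03, range -0.58 to 0.45, against 0.04 over all tested genes, 5 with an unadjusted p under 0.05). There 0.154% of tested genes were called and 1051 of 14322 had an unadjusted p under 0.05. At such shares 0 calls in a short list say little about its members, here and in the KO2 lists below. Rasgef1a, an exchange factor of neurons, had the smallest p at E19.5 with a difference of 0.49 (limma adjusted p = 0.108). In KO7 none of 25 was called against wild type (4 with an unadjusted p under 0.05), where 4.45% of tested genes were. An unadjusted p under 0.05 was held by 3026 of 14322 genes there. In KO3, 2 of 25 were called lower and none higher, Ralgps1 by -1.49 (limma adjusted p = 0.0135) and Rapgef1 by -0.43 (limma adjusted p = 0.0394), beside a background of 8.2% called lower. With stage, 10 rose and 6 fell in wild type, beside backgrounds of 21.9% and 34.1%, and 9 rose and 7 fell in KO2, beside 20.7% and 28.6%. Rasgrp1, a diacylglycerol-responsive Ras exchange factor, rose by 3.55 in wild type (limma adjusted p = 3.2e-06). Rapgef4, a cyclic AMP-responsive exchange factor for Rap, rose by 2.77 (limma adjusted p = 1.04e-06).

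**Figure D4:**
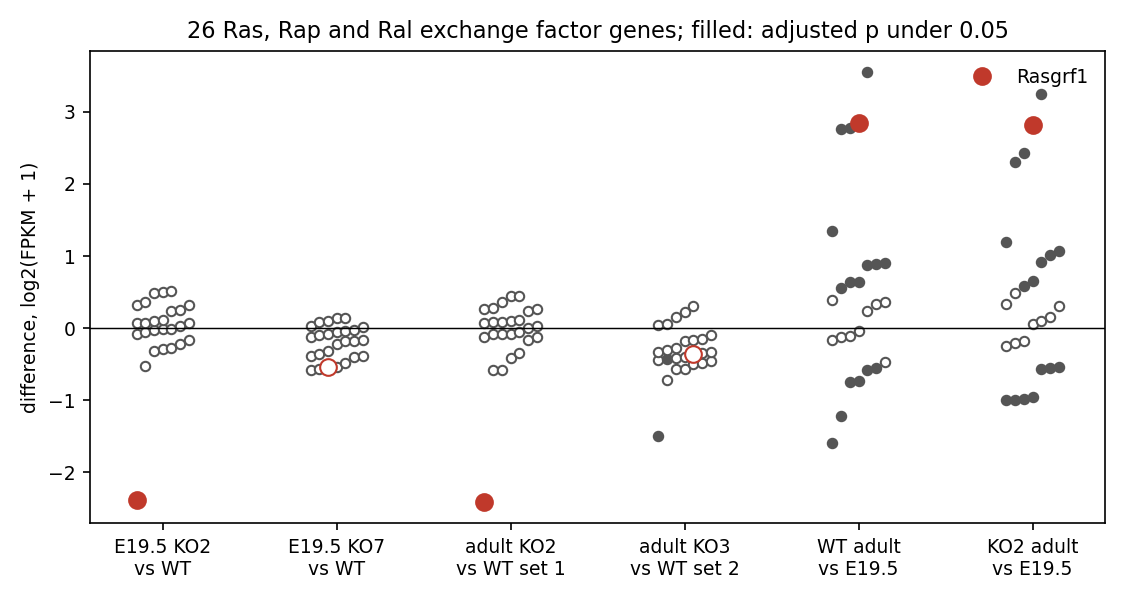
Difference in log2(FPKM + 1) of 26 exchange factor genes in 6 comparisons, with Rasgrf1 in red and filled points where the limma adjusted p is under 0.05. In both KO2 against wild-type comparisons Rasgrf1 lies near -2.4 and the other 25 lie between -0.58 and 0.52, whereas with stage many members moved.

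Genes upstream of the RASGRF1 protein include NMDA receptor subunits, calmodulins, neurotrophin receptors and the kinases that act on it. None of the 18 tested was called in KO2 at E19.5 (limma, median 0.04) or in adults (median 0.04), with 2 at an unadjusted p under 0.05 in each. The shares called over all tested genes were 1.28% and 0.154%, with 2305 and 1051 of 14322 at such an unadjusted p. Grin2b, the NMDA receptor subunit that RASGRF1 binds, had 24.1 and 20.75 FPKM in wild type at E19.5 and 16.91 and 12.3 FPKM in KO2. The Grin2b difference of -0.60 did not pass (limma adjusted p = 0.151). In adults Grin2b had 18.81 and 14.46 FPKM in set 1 and 20.3 and 16.71 FPKM in KO2. Camk2b, a subunit of calcium/calmodulin-dependent kinase II, had 225.7 and 208.7 FPKM in set 1 and 359.3 and 334.2 FPKM in adult KO2, and its difference of 0.67 did not pass (limma adjusted p = 0.0923). In KO7, 1 of 18 was called, Camk4, a calmodulin-dependent kinase of the nucleus (-0.66, limma adjusted p = 0.0472), where 4.45% of tested genes were called in either direction. The Camk4 call held in 9 of 23 alternatives. In KO3, 4 of 18 were called lower and 1 higher, beside backgrounds of 8.2% and 13.9%. Among them Grin2a, the NMDA receptor subunit of the mature brain, fell by 1.58 (limma adjusted p = 0.0102), and Ntrk2, the receptor for BDNF, fell by 0.57 (limma adjusted p = 0.022).

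With stage, 9 of these 18 genes rose and 1 fell in wild type, where 21.9% of tested genes were called higher and 34.1% lower. Camk2a, the forebrain subunit of the same kinase, went from 32.91 and 27.27 FPKM at E19.5 to 812.7 and 471.9 FPKM in set 1. Its log2 rise was 4.32 (limma adjusted p = 1.63e-07). Grin1, the obligate NMDA receptor subunit, rose by 1.40 (limma adjusted p = 1.44e-05). In KO2, 8 rose and 1 fell, beside backgrounds of 20.7% and 28.6%, and Camk2a rose by 3.76 (limma adjusted p = 6.18e-07).

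The small GTPases that exchange factors load were not called in KO2 at either stage (limma, 0 of 12 each, with 4 at E19.5 and 0 in adults at an unadjusted p under 0.05). Backgrounds were 1.28% and 0.154% called, and 2305 and 1051 of 14322 genes at that unadjusted p. Rala, a GTPase downstream of Ras, differed by -0.48 at E19.5 and did not pass (limma adjusted p = 0.0561). In KO7, 1 of 12 was called higher, the Ras relative Rras (0.99, limma adjusted p = 0.0241), beside a background of 3.02%. In KO3, 3 of 12 were called higher, beside a background of 13.9%: Rac3 by 0.92, Hras1 by 0.66 and Rap1a by 0.36 (limma adjusted p = 0.0391, 0.0419 and 0.0489). With stage in wild type 3 rose and 7 fell, beside backgrounds of 21.9% and 34.1%. Rac3 fell by 3.07 (limma adjusted p = 4.82e-06).

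Of the RAF-MEK-ERK cascade 0 of 12 genes, and of the Ras GTPase-activating proteins, which switch Ras off, 0 of 8 were called in KO2 at either stage by limma. At an unadjusted p under 0.05 there were 0 cascade genes and 1 GTPase-activating gene at each stage. Of all 14322 tested genes 2305 had such a p at E19.5 and 1051 in adults, and 1.28% and 0.154% were called. In KO3, 5 of 12 cascade genes were called lower and 1 higher, beside backgrounds of 8.2% and 13.9%, with the scaffold Ksr2 at -1.12 (limma adjusted p = 0.00965) and the ERK-activated kinase Rps6ka3 at -1.25 (limma adjusted p = 0.0135). In KO3 the Ras inhibitor Nf1 fell by 0.68 (limma adjusted p = 0.0163), the 1 of 8 GTPase-activating genes called. Between E19.5 and adult wild type Map2k1, which encodes the kinase MEK1, rose from 19.21 and 19.92 to 86.55 and 81.23 FPKM (2.05 on the log2 scale, limma adjusted p = 5.23e-07).

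Genes whose transcription follows ERK activity were not called in KO2 at E19.5 (limma, 0 of 22, median -0.01, 2 with an unadjusted p under 0.05) or in adults (0 of 22, median 0.27, 18 above 0 and 4 below, 6 with an unadjusted p under 0.05). Among all tested genes 1.28% and 0.154% were called, and 2305 and 1051 of 14322 had such an unadjusted p. The immediate early gene Egr1 had 15.77 and 13.98 FPKM in wild type at E19.5 and 6.72 and 8.07 FPKM in KO2. The Egr1 difference of -0.92 did not pass (limma adjusted p = 0.177). In KO7 Egr1 fell to 3.92 and 4.51 FPKM, the 1 of 22 called (-1.61, limma adjusted p = 0.0181), where 4.45% of tested genes were. In adults Egr1 had 114.9 and 66.88 FPKM in set 1 and 112.2 and 101.3 FPKM in KO2, which overlapped. In KO3, 4 of 22 were called lower, beside a background of 8.2%, among them the Ras-ERK inhibitor Spred2 (-0.90, limma adjusted p = 0.0154). Genes of the growth hormone and IGF axis, which Rasgrf1 is known to influence in mice, were not called in KO2 (limma, 0 of 7 at each stage, with 0 at E19.5 and 5 in adults at an unadjusted p under 0.05). Over all tested genes 1051 of 14322 had an unadjusted p under 0.05 in adult KO2. In adult KO2 the 5 were mixed in direction, with Gh and Prl, the prolactin gene, below set 1 and Igf1, Ghr and Igf1r above it. Growth hormone itself, Gh, had 6.95 and 10.6 FPKM in set 1, 0.672 and 5.07 FPKM in adult KO2 and was listed at 0 in set 2 and KO3. In those sets a listed 0 can stand for a low level.

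Other paternally expressed imprinted genes, outside the Rasgrf1 locus, were not called in KO2 at E19.5 (limma, 0 of 27, median 0.02, lowest -0.64, 4 with an unadjusted p under 0.05) or in adults (0 of 27, median 0.03, lowest -0.57, 3 with an unadjusted p under 0.05). Backgrounds were 1.28% and 0.154% called, and 2305 and 1051 of 14322 genes at such a p. In KO3 0 of 27 was called (9 with an unadjusted p under 0.05), where 22.1% of tested genes were and 5636 of 14322 had such a p. Of the 28 members measured, tested or not, 4 were listed at 0 in both KO3 libraries and 4 in both set 2 libraries. A member at 0 in both groups could not be called. In KO7, where the Rasgrf1 difference from wild type did not pass, 7 of 27 were called higher and 1 lower. Their median was 0.65, and the backgrounds were 3.02% and 1.43%. Sgce, which encodes a sarcoglycan, rose from 13.39 and 15.55 to 37.81 and 31.71 FPKM (1.21, limma adjusted p = 0.00448), and Plagl1, a zinc finger transcription factor, from 9.20 and 8.44 to 21.97 and 23.11 FPKM (1.26, limma adjusted p = 0.00818). Kcnq1ot1, the non-coding RNA of the Kcnq1 domain, was the 1 that fell (-0.59, limma adjusted p = 0.0197). KO7 has the Snrpn, Peg3, Kcnq1 and other domains among its deletions, so several members of this list lie at deleted regions. The 7 called higher were Igf2, Mest, Sgce, Slc38a4, Plagl1, Zrsr1 and Inpp5f, and no deleted DMR of KO7 bears their names. Snrpn and Peg3 themselves were not called in KO7 (limma adjusted p = 0.798 and 0.925). In KO2 and KO3 likewise, members of the list at the H19-DMR and the IG-DMR lie at deleted regions.

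On chromosome 9, 6 table genes on each side of Rasgrf1 were taken in RefSeq gene order, and 10 of these 12 had enough signal to be tested. Mir184, the microRNA next but 1 before Rasgrf1, was listed at 0 in all 14 libraries, and 4930524O08Rik, the nearest, did not pass 0.0449 FPKM. None of the 10 was called by limma in KO2 at E19.5 or in adults, with 2 and 0 at an unadjusted p under 0.05. Of all tested genes 1.28% and 0.154% were called, and 2305 and 1051 of 14322 had such a p. Ctsh, the protease gene next after Rasgrf1, had 3.86 and 4.08 FPKM in wild type at E19.5 and 4.85 and 4.62 FPKM in KO2. In adults Ctsh had 6.57 and 5.98 FPKM in set 1 and 5.34 and 5.98 FPKM in KO2. Ankrd34c, the nearest tested gene on the other side, had a difference of -0.18 at E19.5 and -0.16 in adults. The lowest of the 10 at E19.5 was Adamts7, a metalloprotease gene, with -0.53 and no call.

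In KO3, 4 of the 10 neighbours were called higher, where 13.9% of all tested genes were, and none lower. These were Mthfs, a folate enzyme, by 1.37 (limma adjusted p = 0.00952), Tmed3, a cargo receptor of the secretory pathway, by 0.86 (limma adjusted p = 0.0180), Ctsh by 0.75 (limma adjusted p = 0.00937) and Morf4l1, a chromatin protein, by 0.65 (limma adjusted p = 0.0128). Adamts7 was listed at 0 in both groups of this comparison, so it could not be called. Mthfs had 8.996 and 13.28 FPKM in KO3 and 3.23 and 4.02 FPKM in set 2. Ctsh had 6.92 and 8.15 FPKM in KO3 and 3.99 and 4.12 FPKM in set 2. None of the 10 was called by limma in the KO3 change minus the KO2 change (3 with an unadjusted p under 0.05). In that contrast 0.0489% of tested genes were called and 4020 of 14322 had such a p. Set 2 was itself below set 1 for Ctsh (-0.52, limma adjusted p = 0.0144), Tmed3 (-0.68, limma adjusted p = 0.0353) and Mthfs (-0.66, limma adjusted p = 0.0666), and Morf4l1 differed by 0.03. Ctsh was also called higher in KO7 (8.13 and 7.30 FPKM, 0.81, limma adjusted p = 0.00769), where 3.02% of tested genes were. With stage in wild type, set 1 against E19.5, Ankrd34c rose by 1.19 and Ctsh by 0.55 (limma adjusted p = 0.00315 for Ctsh). Zic1, Zic4 and Adamts7 fell (log2 differences of -1.63, -2.42 and -2.203). Set 2, not tested against E19.5, had a mean near that of E19.5 for Zic1 (56.47 and 55.3 FPKM) and Ctsh (4.05 and 3.97 FPKM). The set 2 and E19.5 means were apart for Zic4 (2.85 and 15.86 FPKM) and Ankrd34c (2.23 and 0.403 FPKM). Zic1 was called higher in set 2 than in set 1 (1.65, limma adjusted p = 0.000384), where 6.84% of tested genes were. Zic1 and Zic4 are transcription factors of cerebellar granule cells.

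**Figure D5:**
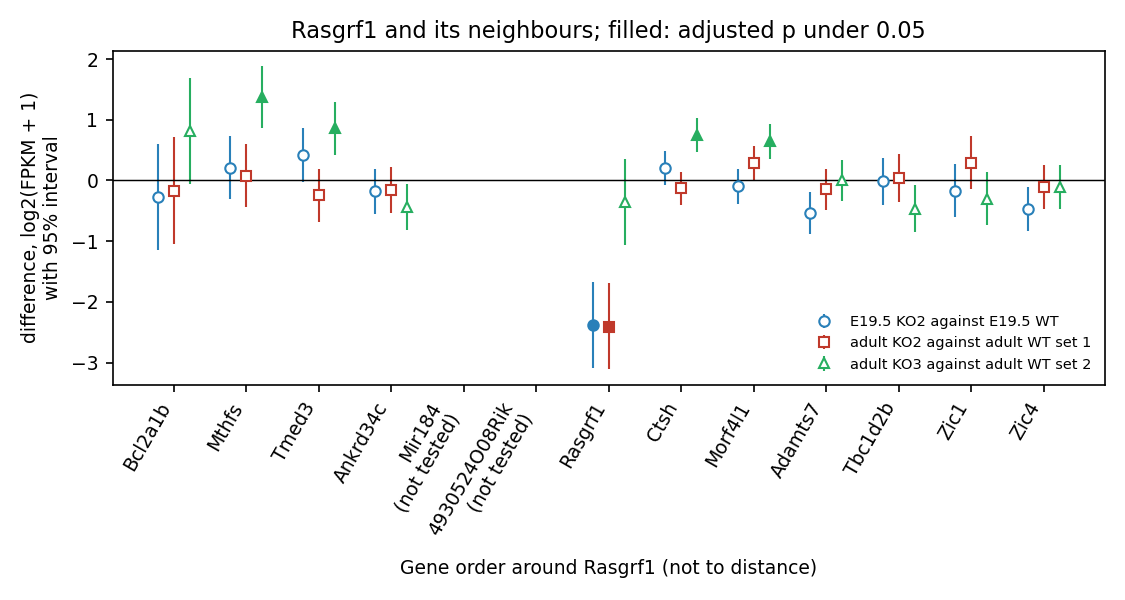
Difference in log2(FPKM + 1) with 95% interval for Rasgrf1 and the 6 table genes on each side, in RefSeq gene order and not to distance, for E19.5 KO2, adult KO2 and adult KO3 against their wild types, with filled symbols where the limma adjusted p is under 0.05. In KO2 Rasgrf1 alone is filled among the 11 tested genes, and in KO3 the filled genes are 4 neighbours that lie above 0. The KO3 point of Adamts7 is drawn at 0 because the gene was listed at 0 in both groups.

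The genes most like Rasgrf1 over the 14 libraries were found by Pearson's r of log2(FPKM + 1), as a description in which stage is shared by all genes. They were Pltp, a phospholipid transfer protein (r = 0.913, n = 14 libraries), Pde4b, a cyclic AMP phosphodiesterase (0.911), Gm9962 (0.908), Rasgrp3, another exchange factor (0.903), and Zfp385a, a zinc finger protein (0.895). Rasgrf2 was in place 3502 with an r of 0.448. After each stage mean was subtracted, the most alike were Tspan11, a tetraspanin (0.911), Myh10, a non-muscle myosin (0.885), Gtpbp10 (0.879), Layn, a hyaluronan receptor (0.819), and Pafah1b2, a subunit of a phospholipase (0.816). The r of Rasgrf2 was then -0.446. Tspan11 had 2.60 and 2.12 FPKM in wild type at E19.5 and 1.73 and 1.42 FPKM in KO2, and 1.57 and 1.63 FPKM in set 1 and 0.887 and 0.763 FPKM in adult KO2. None of these 10 genes was called in KO2 at either stage, where 1.28% and 0.154% of tested genes were. Their KO2 differences were smaller than that of Rasgrf1, for example -0.38 and -0.51 for Tspan11.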

How the data were processed

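The authors deposited 1 table of FPKM values, with 1 column per library, for 14 brain libraries of 7 groups. Build mm9, Cufflinks 2.2.1, TopHat2 2.1.1 and CASAVA are listed in the submitters' processing notes, with no role or order. For annotation and strand setting, nothing is given in the sources used here. The columns of adult KO3 and wild-type set 2 lack the FPKM header word that the other 10 carry, and were taken as FPKM. Whole reads could not be recovered from the values, so depth is unknown.

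From these values log2(FPKM + 1) was computed for the 14322 genes that reached 1 FPKM in 2 or more libraries, and 7 group means were fitted with limma 3.58.1 (trend option, 7 residual degrees of freedom, 2-sided) in R 4.3.3. P-values were adjusted by Benjamini-Hochberg over all tested genes, with a threshold of 0.05. The fit was tested on simulated data. An exact permutation test of 2 against 2 libraries cannot give a p below 0.333 and was not used.

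Rasgrf1 and the gene lists were chosen with earlier results of these data known. Named are Rasgrf1, Rasgrf2, the 6 nearest table genes on each side, the genes most like Rasgrf1, the genes called lower in both KO2 comparisons, and from each list and comparison up to 4 called members with the smallest p or, where none passed, up to 2. Of the symbols, 23221 of 23375 matched RefSeq (GRCm38.p6), which was used for names, gene order and promoter windows, since the table's build differs. A further 2 entries without a gene name were left out. Some genes that met the naming rule are not reported here.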

Additional observations from a re-analysis of the deposited data

How the results depend on the processing

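No alternative reversed the direction of a called Rasgrf1 difference or of a named gene's call. With a pseudocount of 0.1 the adult KO2 fall of Rasgrf1 was -2.47 and missed the threshold. With a pseudocount of 10 the E19.5 KO7 against KO2 difference was 0.63 and missed it, while the KO3 change minus the KO2 change was 1.62 and passed. The last passed in 7 of its 25 alternatives, among them the fit without the 3 libraries that stood apart (1.88) and some fits with 1 library left out. With the wild-type sets as 1 group it becomes the direct KO3 against KO2 difference, which holds the handling (2.39 in either fit, both past the threshold). Without the 3 libraries that stood apart, a setting chosen after seeing the data, KO7 against wild type (-0.54) and set 2 against set 1 (0.65) passed too. With 1 library left out, a lone library being assumed to vary like the other groups, the log2 difference ranged from -3.001 to -1.77 for E19.5 KO2, 1.23 to 2.46 for KO7 against KO2, -2.60 to -2.21 for adult KO2, -0.66 to -0.05 for KO3, 2.199 to 3.435 for the rise in KO2 with stage, -0.64 to 0.60 for the adult minus the E19.5 change of Rasgrf1 in KO2 and 1.74 to 2.36 for the KO3 change minus the KO2 change. Over the alternatives the number of genes called ranged from 6 to 529 in E19.5 KO2 (183 as reported), 49 to 1552 in KO7 (637), 3 to 65 in adult KO2 (22) and 0 to 6780 in KO3 (3164). Quantile scaling moved the share of calls that were higher from 68.9% to 58.1% in E19.5 KO2, from 62.9% to 47.3% in KO3 and from 32.8% to 47.5% between the wild-type sets. Replicate numbers are shared between groups but pair nothing in the labels, and deviations of same-numbered libraries correlated between -0.333 and 0.233. With the replicate number as a block Rasgrf1 kept each call (E19.5 KO2 -2.38, adjusted p = 0.00706; adult KO2 -2.41, adjusted p = 0.00982), and 139, 21 and 2963 genes were called in E19.5 KO2, adult KO2 and KO3. Depth is unknown, so no counting error could be given.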
